A study of Mus musculus with 15 samples.

Results

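Adrenergic receptors are the cell-surface receptors for norepinephrine and epinephrine, the transmitters of sympathetic nerves and the adrenal medulla. The alpha-1 receptors couple mainly to Gq and calcium release, the alpha-2 receptors to Gi, which lowers cyclic AMP, and the beta receptors mainly to Gs, which raises it. In macrophages, signalling through these receptors is known to change cytokine release and metabolism. The genes described here are the 8 adrenergic receptor genes Adra1a, Adra1b, Adra1d, Adra2a, Adra2b, Adra2c, Adrb1 and Adrb3, chosen by symbol from a table of 24084 genes, and all 8 were found in it.

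The study set macrophages that lie along sympathetic neurons beside macrophages of other tissues. Double-positive cells for F4/80 and CD45, from C57BL/6J tissue and with no culture step, gave 15 low-input libraries of total RNA, and the labels name no genetic change. Every library title carries the tag ND, which the labels do not explain. SAM, the macrophages of sympathetic neurons, came from ganglia (3 libraries) and from the nerve fibers of inguinal fat (2 libraries). The others were sATM from subcutaneous fat (2), vATM from visceral fat (2), SpM from spleen (3) and microglia from brain (3). Tissues were taken from 10 mice. The labels give no age and do not tie libraries to animals, so the p-values reflect variation among libraries that could be technical alone. Collagenase for 30 minutes was used on fat, spleen and brain. The fibers had hyaluronidase for 30 minutes and collagenase for 15 minutes, and the ganglia had collagenase for 10 minutes and trypsin for 30 minutes, so digestion and tissue cannot be told apart for these groups.

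Libraries held between 2.55 M and 12.5 M corrected counts. Summed red pulp macrophage markers reached 8464 to 13270 CPM (counts per M counts, TMM-scaled) in spleen and at most 245 CPM elsewhere. Summed microglia markers reached 10150 to 11210 CPM in brain and at most 778 CPM elsewhere. The 6 general macrophage markers summed to 1100 CPM or more in every library. Markers of fat-resident macrophages did not separate sATM, at 1751 to 5945 CPM, from SAM ganglia, at 1236 to 2420 CPM, and no list of markers defining SAM was used.

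Carried-over genomic DNA matters for these receptors, because 4 of the 8 genes have a single exon and the authors' removal of DNA reads left such genes nearly as they were. In the corrected table the single-exon genes kept 101% of their raw counts, while multi-exon genes kept 25.2% of their raw gene-body counts, introns included. The DNA level of each library was therefore read from 1020 single-exon olfactory receptor genes, which macrophages are not known to use broadly. It ran from 0.054 reads per kb in SAM ganglia replicate 1 to 17.1 reads per kb in SAM fibers replicate 1. Both fiber libraries were high, at 17.1 and 5.23 reads per kb, and replicate 1 of every other group was low, at 0.054 to 0.30 reads per kb.

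**Figure D1:**
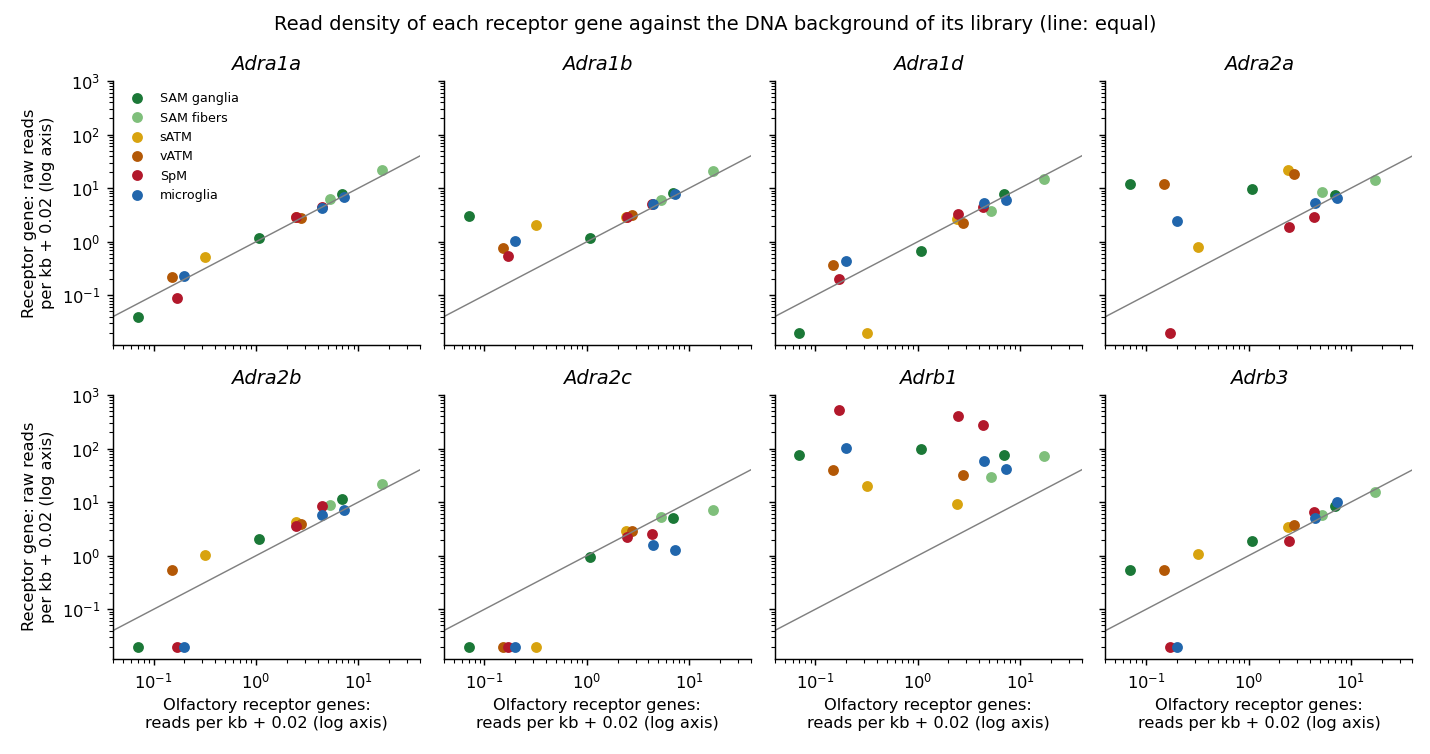
Raw reads per kb of each receptor gene (vertical, log axis) against reads per kb of single-exon olfactory receptor genes in the same library (horizontal, log axis), both with 0.02 added, 1 point per library, with a line of equal density. Adrb1 lies above the line in all 15 libraries. Where DNA is plentiful, Adra1a, Adra1d and Adrb3 run along the line and Adra2c along it or below it. Adra2b there runs along the line or somewhat above it, at 0.98 to 1.92 times the DNA level.

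The sequences before the RefSeq starts of Adrb1 and Adra2b are shown to set the receptor read far above the DNA level beside one that followed it. Each line gives 250 bases of the plus strand of RefSeq on build GRCm38.p6, at chr19:56721867-56722116 for Adrb1 and chr2:127362929-127363178 for Adra2b. The gene models of the deposited tables start farther downstream, at 56722372 for Adrb1 and 127363286 for Adra2b, so the windows do not abut those starts. Capitals mark matches on either strand to GGGCGG, the GC box, and to TGACG, the half-site of the cAMP response element.
Adrb1: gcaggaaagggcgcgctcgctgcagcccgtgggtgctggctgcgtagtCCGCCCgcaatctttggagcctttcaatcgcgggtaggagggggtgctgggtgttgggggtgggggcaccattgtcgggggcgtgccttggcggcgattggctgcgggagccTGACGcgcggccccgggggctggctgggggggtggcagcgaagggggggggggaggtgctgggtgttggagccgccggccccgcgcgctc
Adra2b: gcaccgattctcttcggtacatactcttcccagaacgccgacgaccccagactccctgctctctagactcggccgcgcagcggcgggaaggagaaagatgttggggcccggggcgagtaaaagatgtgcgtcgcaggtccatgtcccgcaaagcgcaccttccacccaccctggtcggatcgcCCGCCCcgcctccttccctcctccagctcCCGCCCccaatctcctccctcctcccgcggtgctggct

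Both windows were rich in G and C, at 74.0% for Adrb1 and 66.0% for Adra2b against a median of 52.4% over 32851 promoter windows of the same length. Adrb1 held 1 GC box and 1 half-site, and Adra2b held 2 GC boxes and no half-site. GC boxes occurred in 32.7% of all windows and the half-site in 17.8%. The full element TGACGTCA, present in 1.5% of windows, and the PU.1 core GAGGAA, present in 23.3%, had no match in either window. These matches are letters in a window and were not tested as binding sites.

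Adrb1, the beta-1 receptor known for raising heart rate, is a single-exon gene at chr19:56722372-56724862 (mm10, plus strand). It was the adrenergic receptor gene with the highest mean RPKM (reads per kb and M reads) in every group, although Adra2a exceeded it in sATM replicate 2 (2.59 against 1.09 RPKM). Its RPKM was 47.0 ± 2.4 (SD, n = 3) in spleen and 14.7 ± 4.5 (n = 3) in SAM ganglia, and the next gene in spleen, Adra2b, stood at 0.602 ± 0.69 (n = 3).

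In spleen its level was 109, 109 and 103 CPM in replicates 1 to 3. In SAM ganglia it was 43.9, 31.2 and 39.3 CPM, and in SAM fibers 53.2 and 15.6 CPM. In microglia it was 22.4, 29.5 and 22.5 CPM. The spleen libraries lay above all 12 others, and the ganglia libraries lay above the microglia libraries, while the fibers overlapped both. Both fat groups were lowest, with 12.5 and 2.64 CPM in sATM and 11.97 and 9.71 CPM in vATM, and did not overlap microglia.

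Against the other 5 groups, Adrb1 was higher in spleen by 2.48 ± 0.32 on the log2 scale (SE; edgeR quasi-likelihood test, Benjamini-Hochberg adjusted p = 3.6e-05). It was the 1 receptor gene called of 5 tested, where 12.4% of all 15289 genes tested were called, a call needing an adjusted p below 0.05 and a change of 1 or more on the log2 scale in either direction. Adra1a, Adra1b and Adra1d had too few reads to be tested. The Adrb1 call held in all 26 processing alternatives, at 2.38 to 2.89 on the log2 scale. In bulk libraries such as these, fewer cells of a type and less RNA per cell cannot be told apart.

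Set against DNA, the Adrb1 reads were 62.2 times the background count in spleen replicate 3, which had the most DNA of its group, and 162 times in replicate 2. In 9 libraries the expected DNA count was at least 5, and there Adrb1 had 3.82 to 161 times that count in the raw table, with a median of 11.1. In all 9 it exceeded the 95th percentile of olfactory receptor genes. Lowest in this respect were sATM replicate 2, at 3.82 times, and SAM fibers replicate 1, at 4.19 times.

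Spleen libraries also held the most B cell and endothelial transcripts. The summed level of 5 B cell markers was 76.3 to 105 CPM in spleen and 12.7 to 42.9 CPM elsewhere, with 2 of 4 tested markers called higher. The 6 endothelial markers summed to 48.1 to 65.9 CPM in spleen and 3.46 to 15.3 CPM elsewhere, with 1 of 4 called higher. Cd79a, which encodes a B cell receptor subunit, read 6.07, 6.02 and 8.52 CPM in the spleen libraries. The part of these cells in the Adrb1 level was not tested.

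**Figure D2:**
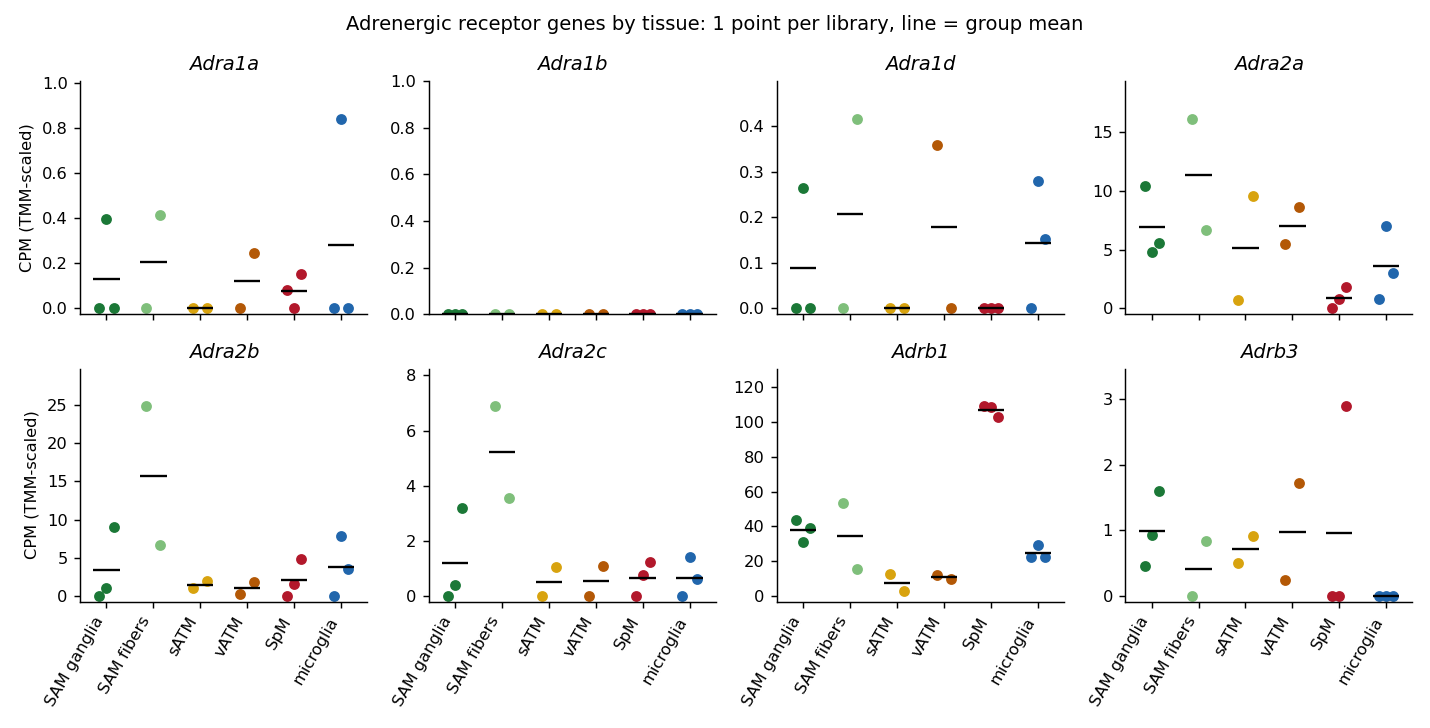
TMM-scaled CPM of the 8 receptor genes (vertical, a separate scale for each gene) by tissue group, 1 point per library and a line at the group mean. Adrb1 stands at 103 to 109 CPM in the 3 spleen libraries and at most 53.2 CPM elsewhere, and Adra1b is listed at 0 in all 15 libraries.

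Between SAM fibers and the sATM of the fat around them, Adrb1 was again the 1 receptor gene called of 5, higher in fibers by 2.24 ± 0.61 on the log2 scale (edgeR adjusted p = 0.0452), where 4.84% of all genes were called. The pairs did not overlap, but the fiber libraries stood 53.2 against 15.6 CPM and the sATM libraries 12.5 against 2.64 CPM. The call was lost when DNA was subtracted (2.06 on the log2 scale, adjusted p = 0.0744, an alternative added after seeing the data), when DNA entered the fit as a covariate (2.31, adjusted p = 0.0796) and in 13 of 15 fits without 1 library. Without SAM fibers replicate 1 the difference was 1.09 on the log2 scale and without sATM replicate 2 it was 1.31, with adjusted p of 0.365 and 0.287. The leave-one-out fits as a whole spanned 1.09 to 3.37.

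Fiber libraries differed from sATM in other cell markers too. Sympathetic neuron markers summed to 329 to 836 CPM in fibers and 24.8 to 73.6 CPM in sATM, with 4 of 15 called higher. Schwann and satellite glia markers summed to 520 to 627 against 54.2 to 105 CPM, with 6 of 8 called higher, and fibroblast markers to 167 to 246 against 19.4 to 26.8 CPM, with 3 of 5 called higher. Neutrophil markers summed to 96.6 to 112 against 7.64 to 8.16 CPM, with 1 of 3 called higher, and brain neuron and glia markers to 107 to 267 against 10.92 to 10.95 CPM, with 3 of 6 called higher. Their part in the Adrb1 difference was not tested.

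For both SAM groups together against the other 4 groups, none of the 5 receptor genes was called by edgeR or by DESeq2, where edgeR called 9.15% of all genes, and 1 had an unadjusted p below 0.05. That gene was Adrb1, at 0.76 ± 0.31 on the log2 scale (edgeR adjusted p = 0.125). Its SAM libraries, at 15.6 to 53.2 CPM, lay above all fat libraries and below all spleen libraries. Without SAM fibers replicate 2 it was called, at 1.05 on the log2 scale (adjusted p = 0.0124).

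Other comparisons gave no called receptor gene. SAM ganglia against SAM fibers (4.11% of all genes called) and sATM against vATM (0.0392%) had 0 called and 0 with an unadjusted p below 0.05 by edgeR, and 0 called by DESeq2. Microglia against the other groups (13.7%) had 0 called by either tool and 1 with an unadjusted edgeR p below 0.05. That gene, Adrb3, was listed at 0 in all 3 microglia libraries. In the test for any difference among the 6 groups, which called 22.2% of all genes at an adjusted p below 0.05, Adrb1 was called (edgeR adjusted p = 0.00038) and the other 4 receptor genes were not, at adjusted p of 0.279 to 0.691.

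Adra2a encodes the alpha-2A receptor, known as an autoreceptor that limits norepinephrine release from nerve endings. It is a single-exon gene at chr19:54045182-54048982 (mm10, plus strand). It had 45, 36 and 28 reads in SAM ganglia, and 54 and 32 in SAM fibers. Subcutaneous fat had 3 and 83 reads and visceral fat 46 and 70. Spleen libraries had 0, 7 and 12 reads and microglia 9, 25 and 20. As CPM the spleen was lowest, at 0 to 1.83, and the ranges of all neighbouring groups overlapped.

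Its reads in the libraries with little DNA are those least open to that background. SAM ganglia replicate 1 held 45 reads where DNA would give 0.20, and vATM replicate 1 held 46 where DNA would give 0.48. Microglia replicate 1 held 9 reads against 0.68, sATM replicate 1 held 3 against 1.12, and SpM replicate 1 held 0 against 0.56. In the other ganglia libraries Adra2a had 36 reads against 4.02 in replicate 2 and 28 against 26.3 in replicate 3. Its reads thus stood clear of DNA in visceral fat and in 2 of 3 ganglia libraries, and replicate 3 was at the DNA level. The sATM libraries differed from each other, since replicate 2 held 83 reads against 9.18.

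In the fibers Adra2a had 54 reads against 64.8 in replicate 1, which is below the DNA level, and 32 against 19.9 in replicate 2, which is 1.61 times that level. After the DNA count was subtracted, the fibers were below visceral fat, at 0 and 2.50 CPM against 5.51 and 7.37 CPM. The ganglia then read 10.4, 4.25 and 0.401 CPM, and all 3 spleen libraries read 0. Before subtraction the fibers had the highest mean, at 11.4 ± 6.7 CPM (SD, n = 2).

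**Figure D3:**
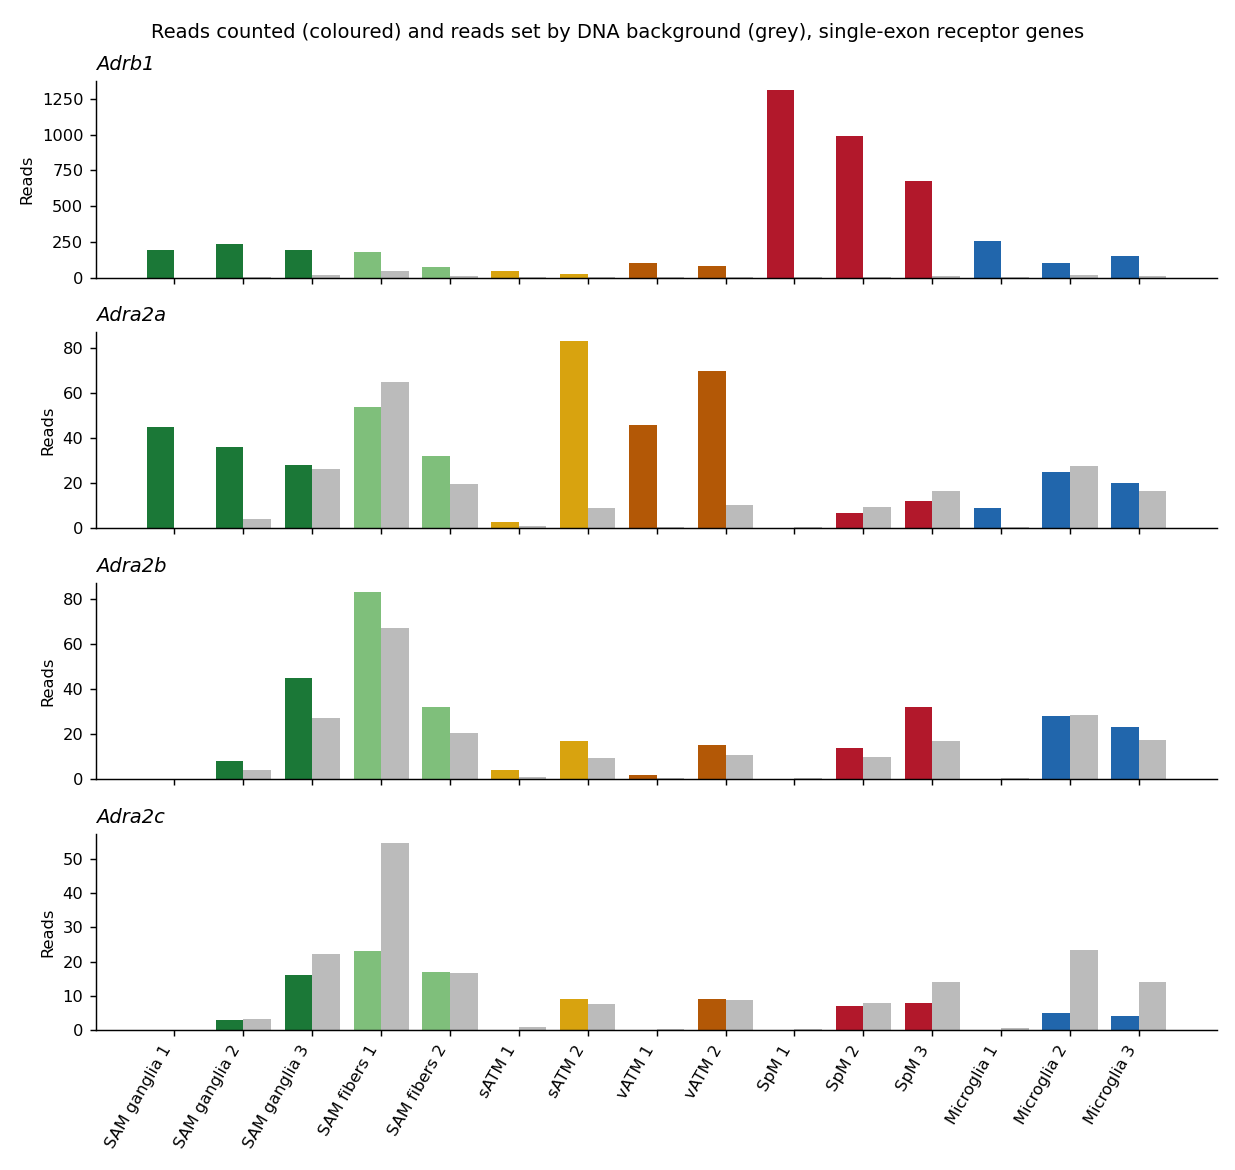
Reads counted in the corrected table (coloured by tissue) and reads set by the DNA background (grey) for the 4 single-exon receptor genes, in each of 15 libraries. Adra2a exceeds the grey bar in vATM (46 and 70 reads) and in sATM replicate 2 (83 reads), and falls below it in SAM fibers replicate 1 (54 reads against 64.8).

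No Adra2a difference was called in the tests as designed. In spleen it was at -2.92 ± 1.04 on the log2 scale against the other groups (edgeR adjusted p = 0.0787), and in SAM it was at 1.45 ± 0.69 (adjusted p = 0.177). The spleen difference passed in 5 of 26 alternatives, among them DESeq2 (-2.95, adjusted p = 0.00751) and a DNA covariate (-3.09, adjusted p = 0.0403). For fibers against sATM the value was 1.10 ± 1.28 (adjusted p = 0.574), and it turned to -1.78 after DNA subtraction.

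Markers of cells known to carry Adra2a were unevenly spread. The sympathetic neuron markers summed to 125 to 176 CPM in SAM ganglia and 329 to 836 CPM in SAM fibers, and the part of neurons in the Adra2a values there was not tested. In vATM they summed to 5.90 to 13.2 CPM, and Th, the rate-limiting enzyme of catecholamine synthesis, read 0.599 and 0.492 CPM there. Adipocyte markers summed to 38.6 to 46.9 CPM in vATM and to 5.54 to 24.9 CPM in SAM ganglia. Platelet markers summed to 3.59 to 3.69 CPM in vATM, 17.9 to 41.55 CPM in SAM fibers and 27.1 to 49.4 CPM in microglia. In microglia Gp9 alone read 25.96, 47.15 and 26.75 CPM, while Itga2b, another platelet marker, read 0.173, 0 and 0 CPM. The part of platelets in the Adra2a values was not tested. Adipoq, the adipocyte hormone gene, read 3.95 and 1.23 CPM in vATM and was listed at 0 in SAM ganglia replicate 1, which had the highest Adra2a level of its group. The part of adipocytes in the fat values was not tested.

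Adra2b and Adra2c, the genes of the other alpha-2 receptors, followed the DNA level. Where the expected DNA count was at least 5, their median ratios to it were 1.45 and 0.72. Adra2b (chr2:127363286-127367221, plus strand) had 0, 8 and 45 reads in SAM ganglia, and 83 and 32 in SAM fibers. Its fat libraries had 4 and 17 (sATM) and 2 and 15 reads (vATM), those of spleen 0, 14 and 32, and those of brain 0, 28 and 23. The lowest counts were in the low-DNA library of each group and the highest in SAM fibers replicate 1. In the 9 libraries with an expected DNA count of at least 5 it stood at 0.98 to 1.92 times that count, and in none above the 95th percentile of olfactory receptor genes. After DNA subtraction Adra2b read 4.78 and 2.29 CPM in the fibers, 3.61 CPM in SAM ganglia replicate 3 and 2.28 CPM in SpM replicate 3. All other libraries then read at most 0.912 CPM.

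Adra2c (chr5:35278566-35281763, plus strand) had 0, 3 and 16 reads in SAM ganglia, and 23 and 17 in SAM fibers. Each fat depot had 0 and 9 reads, spleen had 0, 7 and 8, and brain had 0, 5 and 4. It was listed at 0 in 5 libraries, all with little DNA. Its ratio to the expected DNA count was 0.17 to 1.16. By CPM the fibers, at 6.88 and 3.54, lay above every other group, and after DNA subtraction both fiber libraries read 0.

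Neither gene was called in any comparison. In SAM against the others Adra2b was at 1.95 ± 1.05 and Adra2c at 2.04 ± 1.27 on the log2 scale (edgeR adjusted p = 0.226 and 0.288). In fibers against sATM they were at 3.36 ± 2.10 and 3.20 ± 2.53 (adjusted p = 0.335 and 0.418). With a DNA covariate the Adra2b value in fibers against sATM turned to -0.32, the 1 reversal among 26 alternatives.

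Adrb3 encodes the beta-3 receptor, which drives lipolysis in fat cells, and has more than 1 exon (chr8:27225776-27229588, minus strand). Its levels were low beside the floor of 3 counts, which is 0.249 to 0.897 CPM by library and covers counting error only, and 6 of 15 libraries were above their floor. SAM ganglia read 0.462, 0.930 and 1.61 CPM, the fibers 0 and 0.833, sATM 0.509 and 0.920, and vATM 0.239 and 1.72 CPM. Spleen read 0, 0 and 2.89 CPM, and the microglia libraries were listed at 0 while their gene bodies held 0, 38 and 19 raw reads. Gene-body reads were 0.75 to 1.5 times the DNA level in the 9 libraries where it could be read. An antisense gene overlaps Adrb3, and reads of the pair cannot be told apart because the sources used here do not say whether counting used strand.

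The alpha-1 genes, known for smooth muscle contraction, were barely seen. Adra1a (chr14:66635251-66771168, plus strand) summed to 12.4 corrected counts over 15 libraries and Adra1d (chr2:131545357-131562285, minus strand) to 7.8. Adra1b (chr11:43774605-43836489, minus strand) was listed at 0 in all 15, although its transcript model differed between the corrected and raw tables. Gene-body reads of Adra1a stood at 0.41 to 1.67 times the DNA level.

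Adra1b gene-body reads went further in the low-DNA libraries. There were 383 in SAM ganglia replicate 1 where DNA would give 6.8, 255 in sATM replicate 1 against 37.5, 96 in vATM replicate 1 against 15.9, and 130 in microglia replicate 1 against 22.6. SpM replicate 1 held 67 against 18.7. In the other 10 libraries the ratio was 1.06 to 1.22.

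Downstream of the receptors, 6 of 35 tested partner genes were called in spleen, where 12.4% of all genes were, so the counts per list are given as a description and not as a result about the partners. Adcy3, an adenylyl cyclase that makes cyclic AMP, read 64.4 ± 22 CPM (SD, n = 3) in spleen and at most 4.24 ± 0.77 CPM as a group mean elsewhere. It rose by 4.73 ± 0.38 on the log2 scale in spleen (edgeR adjusted p = 2.2e-07). Adcy7, another cyclase, fell by 1.01 on the log2 scale (± 0.24, adjusted p = 0.00723), and the other 5 of 7 tested cyclases were not called.

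Prkar1b, a regulatory subunit of protein kinase A, rose in spleen by 3.37 ± 0.39 (adjusted p = 1.3e-05) and Prkar2b, another such subunit, fell by 2.41 (± 0.67, adjusted p = 0.0214), with 2 of 6 tested subunits called. Grk3, a kinase that desensitizes active receptors, rose by 2.50 ± 0.34 (adjusted p = 6.4e-05), the 1 gene called of 7 kinases and arrestins. Pde3b, which breaks down cyclic AMP, fell by 5.05 (± 0.80, adjusted p = 0.000279), the 1 called of 7 phosphodiesterases. None of 8 tested G protein alpha subunits was called in spleen. List medians were -1.01 for cyclases, -0.23 for kinase A subunits, 0.26 for kinases and arrestins and 0.47 for phosphodiesterases, beside -0.03 over all genes tested.

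**Figure D4:**
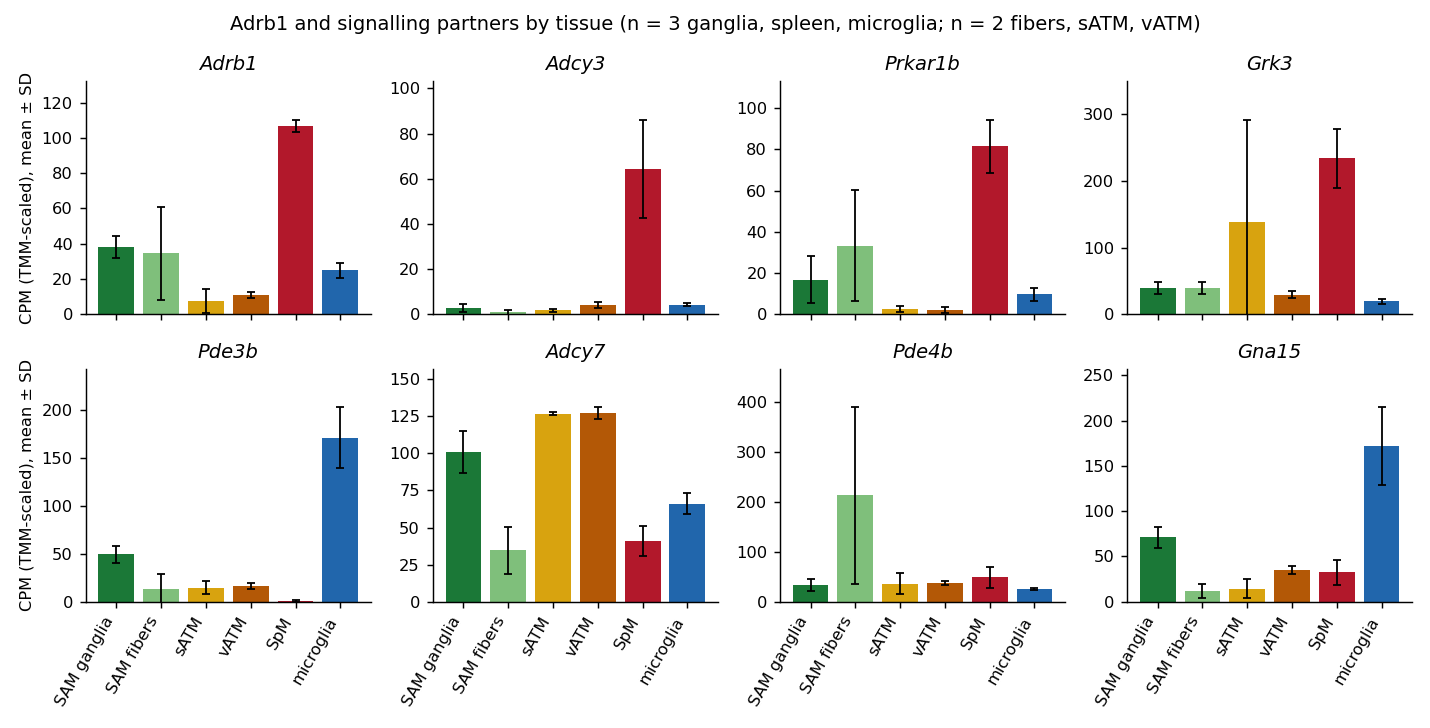
TMM-scaled CPM of Adrb1 and 7 signalling partners by tissue, as group means with SD (n = 3 for ganglia, spleen and microglia, n = 2 for the rest). Adcy3 averages 64.4 CPM and Prkar1b 81.5 CPM in spleen, and Pde3b averages 171 CPM in microglia and 0.840 CPM in spleen.

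Elsewhere the partner genes moved in other ways. In fibers against sATM, Prkar1b rose by 3.62 ± 0.80 (edgeR adjusted p = 0.0174) and Pde4b, a phosphodiesterase, by 2.57 ± 0.59 (0.0217), while Adcy7 fell by 1.87 (± 0.35, 0.00756). In ganglia against fibers Gna15, a Gq-class alpha subunit of blood cells, rose by 2.60 ± 0.53 (0.0122) and Adcy7 by 1.54 ± 0.33 (0.0157), and Pde4b fell by 2.70 (± 0.51, 0.00778). In microglia Pde3b rose to 171 ± 31 CPM (SD, n = 3; edgeR adjusted p = 1.4e-05) and Gna15 rose by 2.68 ± 0.29 (6.9e-06), and Grk3 fell by 1.81 (± 0.44, 0.0091). In SAM against the rest Adcy3 fell by 2.02 (± 0.47, 0.0103), and Prkar1b and Pde4b rose by 1.53 ± 0.39 (0.0182) and 1.22 ± 0.30 (0.016). In that comparison 14 of 15 sympathetic neuron, 7 of 8 Schwann and satellite glia, 5 of 5 fibroblast and 3 of 3 neutrophil markers were called higher, and their part in these values was not tested. Of the dopamine receptors, which bind the precursor of norepinephrine, 2 of 5 were tested and neither was called by edgeR.

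The genes most like each receptor gene were sought by Pearson's r of log2(CPM + 0.5) over the 15 libraries, whose differences in depth and DNA level enter both genes of a pair. For Adrb1 they included Hpgd, a prostaglandin-degrading enzyme (r = 0.917), and Epb41l3, a membrane skeleton protein (r = 0.900). For Adra2a they were Fam109b (0.902), Fndc7 (0.877) and Maoa, which breaks down norepinephrine (0.858). For Adra2b they were Eppk1, Kcnf1 and Actl11 (0.986, 0.986 and 0.985), and for Adra2c they were Foxl1, Cd248 and Hymai (0.970, 0.968 and 0.963). The latter 3 and Kcnf1 and Actl11 have a single exon. For Adrb3 the values were lower, at 0.796 for Medag, 0.791 for Rpl19 and 0.744 for Rbbp8nl.

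**Figure D5:**
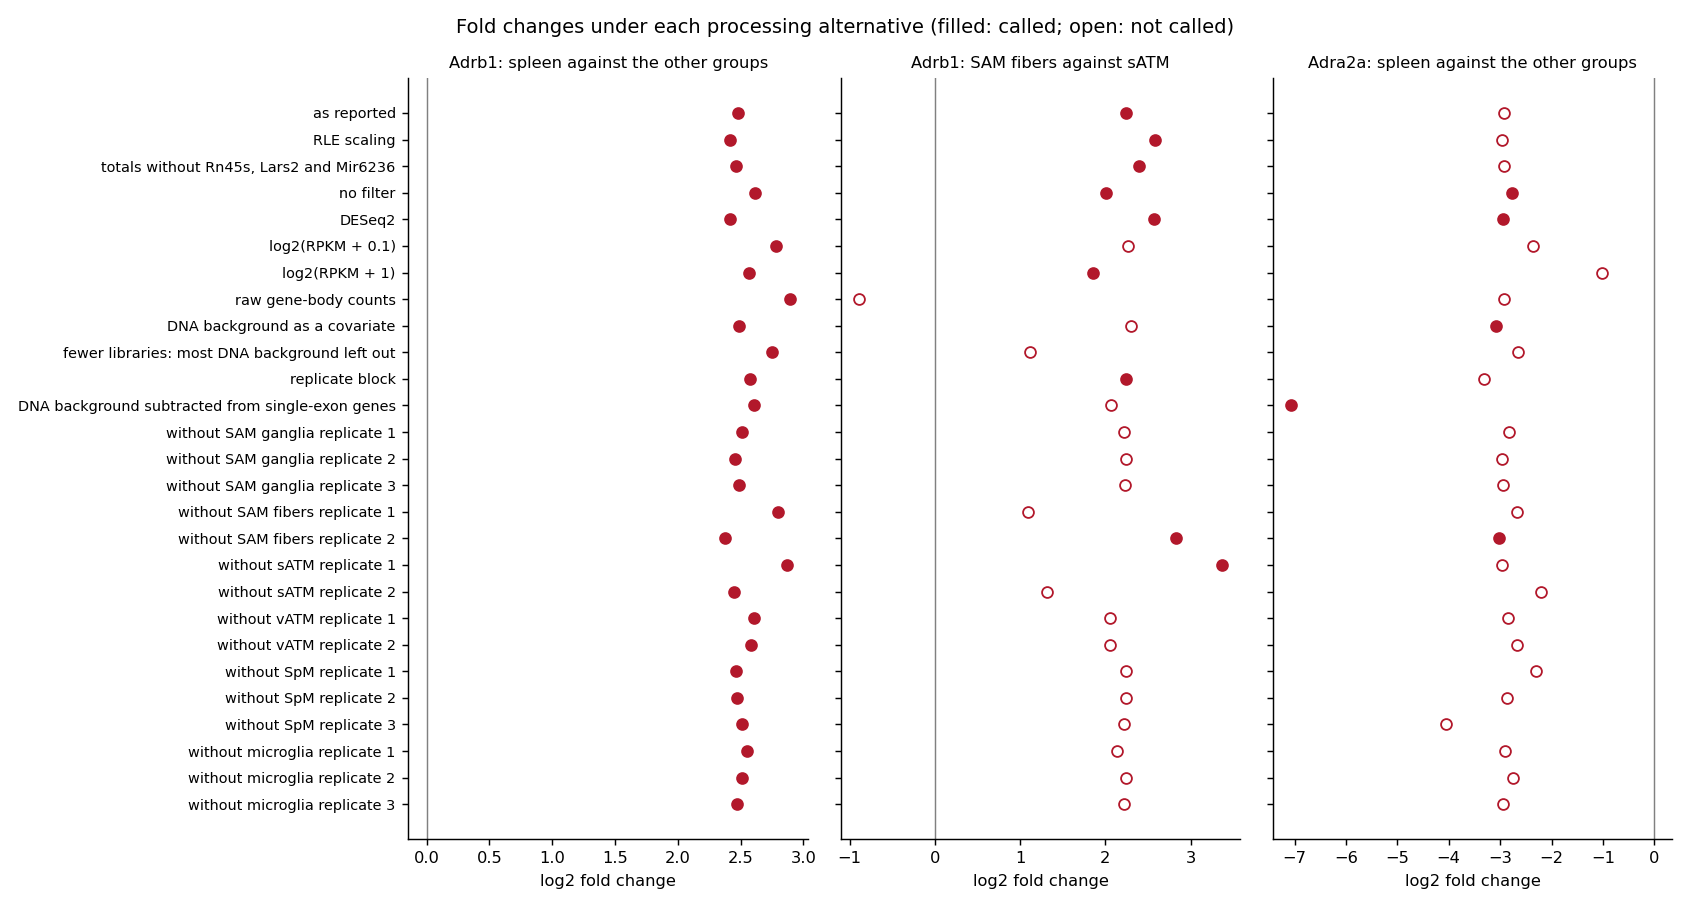
Log2 fold changes (horizontal) under each processing alternative (vertical) for Adrb1 in spleen, Adrb1 in SAM fibers against sATM and Adra2a in spleen, with filled points for calls and open points for values not called. Adrb1 in spleen is filled throughout, at 2.38 to 2.89, while in fibers against sATM most points are open.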

How the data were processed

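Per the submitters' processing notes, STAR, HOMER and build mm10 were used; their versions, settings and the method of DNA removal were not given in the sources used here. The authors deposited 3 tables of the series: estimated counts per gene after removal of DNA reads, RPKM values, and raw counts over gene bodies. After rounding, the estimated counts went into edgeR 4.0.16 (R 4.3.3) for quasi-likelihood tests. filterByExpr (minimum count 10) kept 15289 genes, TMM factors were 0.668 to 1.41, and a single model of the 6 group means took in all 15 libraries, since 3 groups have only 2, with Benjamini-Hochberg adjustment over all genes tested. In comparisons of several groups each group had equal weight. A gene was single-exon if its span exceeded its length by at most 10 bases. The DNA count expected for a gene is the pooled density of single-exon olfactory receptor genes times its length. Alternatives changed scaling, filter, tool (DESeq2, limma on log2 RPKM with 0.1 or 1 added), table, DNA handling and libraries. Named partner genes are the called list members with the smallest p, up to 3 per list and comparison, and like genes the 3 with the highest r. Some genes that these rules name are not reported here. Members and lists were chosen with earlier results of these data known. The fitting functions were tested on simulated data.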

Additional observations from a re-analysis of the deposited data

Results flagged for a closer look

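Adra1b, listed at 0 in the corrected table, had raw gene-body reads well over the DNA level in 4 libraries with little DNA, a signal outside the main measurement. The counts were 383 in SAM ganglia replicate 1, 255 in sATM replicate 1, 96 in vATM replicate 1 and 130 in microglia replicate 1, each more than 5 times the expected DNA count. The raw counts cover a longer transcript model, of 126632 bases, than the one listed at 0, at chr11:43774605-43836489. The source of these reads was not tested. Groups held at most 3 libraries, so single libraries were not screened as outliers.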

How the results depend on the processing

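The count of receptor genes called in fibers against sATM was 1 as reported and 0 with log2(RPKM + 0.1), raw gene-body counts, a DNA covariate, the 3 libraries with most DNA left out, or DNA subtracted. In spleen it was 1 as reported and 2 with no filter, DESeq2, a DNA covariate or DNA subtracted, Adra2a being the second gene. For any difference it was 1, and 0 with raw gene-body counts. Leaving out each library gave 0 to 1 for SAM and for fibers against sATM, and 1 to 2 for spleen. With raw gene-body counts Adrb1 turned to -0.59 in SAM and -0.89 in fibers against sATM, and Adra2a to -1.31 in fibers against sATM. Adra2a there was also -1.78 with DNA subtracted and spanned -0.05 to 3.73 over the leave-one-out fits. Adra2b there was -0.32 with the DNA covariate. Summed over the libraries, Adrb1 had 4610 raw and 4613 corrected reads, and Adra2a had 470 of each. Library totals differed more, as in SAM fibers replicate 1, with 25479822 raw and 4053495 corrected counts. The cause of these changes in sign was not tested. Of 516 fits of the other 20 pairs of gene and comparison, 60 had another sign and 0 were called. Over all genes, the calls as reported were 1399 in SAM, 740 in fibers against sATM, 629 in ganglia against fibers, 6 in sATM against vATM, 2099 in microglia, 1903 in spleen and 3389 for any difference. Raw gene-body counts gave 17, 0, 0, 0, 325, 585 and 639 in that order. DESeq2 called 1730 genes in fibers against sATM, 1422 in ganglia against fibers, 113 in sATM against vATM and 5253 for any difference, and log2(RPKM + 1) called 1149 and 962 in the first pair of these. For sATM against vATM the count was 82 with no filter, 28 with fewer libraries, 13 with the replicate block, 4 with log2(RPKM + 1) and 2 with the DNA covariate. Without single libraries the counts ran from 897 to 3369 in SAM, 266 to 2979 in fibers against sATM, 346 to 2737 in ganglia against fibers, 0 to 68 in sATM against vATM and 2558 to 5251 for any difference, each highest without SAM fibers replicate 2 except in sATM against vATM, where leaving out sATM replicate 2 gave 68. RLE scaling moved the median log2 fold change of all genes in fibers against sATM to 0.28, with Adrb1 still called. Between libraries of the same replicate number, correlations of deviations from the group mean ran from -0.39 to 0.629 over 33 pairs. In groups of 2 libraries the deviations are exact opposites, so these values cannot settle whether libraries were paired. The replicate 1 libraries outside the fibers, which share low DNA, correlated with each other at 0.172 to 0.629 over 10 pairs. With a replicate block the counts of receptor genes called were unchanged, at 1 in spleen and 1 in fibers against sATM.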
